A study of Drosophila melanogaster with 27 samples.

Results

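The genes *tor*, *tsl*, *trk*, *cic*, *tll* and *hkb* make up the core of the terminal patterning system of the *Drosophila* embryo. They were taken by their FlyBase symbols, and all 6 were found by FlyBase identifier among the 17714 genes in the tables. Terminal patterning starts outside the egg. The follicle cell product Torso-like, encoded by *tsl*, marks the ends of the eggshell, where the secreted ligand Trunk, encoded by *trk*, is made available to the receptor tyrosine kinase Torso, encoded by *tor*, in the egg membrane. Torso signals through Ras and the MAP kinase cascade, which removes the repressor Capicua, encoded by *cic*, from the poles, and the gap genes *tailless* (*tll*) and *huckebein* (*hkb*) are then transcribed there. The mRNAs of *tor*, *trk* and *cic* are supplied by the mother, *tsl* acts in the follicle cells, and *tll* and *hkb* are transcribed by the embryo, so that the 6 genes span both sides of the maternal-to-zygotic transition.

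The study asked which maternal mRNAs are regulated by Nanos (Nos), a translational repressor that is recruited to mRNA together with Pumilio. In the first experiment, Upf1-Nos, a fusion of Nos to the mRNA decay factor Upf1, was made in the female germ line. It was set beside Upf1-NosL7, in which the Nos part lacks the C-terminal tail needed to join Pumilio on RNA, beside Upf1 and Nos alone, and beside w1118 embryos, called w, as wild type. Each transgene was driven by a maternal alpha-tubulin GAL4-VP16 driver and carried the *nos* 3′ UTR, and the fixed and DAPI-stained embryos were sorted by hand at nuclear cycle 9, with 3 libraries per genotype. Upf1-Nos embryos have irregular nuclei, almost none of them hatch, and they were picked as being of about the same age. In the second experiment, embryos of mothers carrying the allele nosBN over the deficiency Df(3R)Exel6183, called nos-, were set beside w embryos in unsorted collections from 0 to 1 and from 2 to 3 hours after egg laying, with 3 libraries per group. The nos- and w strains differ in more than the *nos* locus, and strain and *nos* genotype cannot be told apart. Nothing in the labels says that the 3 libraries of a group came from separate cultures, so p-values measure the spread between these libraries.

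The 15 libraries of sorted embryos held 14022879 to 22002028 counts and the 12 libraries of the collections 15253031 to 21661085. Levels are given as CPM, the counts of a gene scaled to the total of its library, and, between genes of different length, as TPM, which is scaled to transcript length as well. Differences are log2 fold changes from 1 edgeR quasi-likelihood fit per experiment with p-values adjusted over all genes tested by the Benjamini-Hochberg method. Called genes had an adjusted p under 0.05 and, in sorted embryos and between stages, over 2-fold change, or between nos- and w a log2 fold change beyond 0.5. The *nos* mRNA was at 0.197 to 0.678 CPM in nos- embryos, against 598 to 676 CPM in w embryos, at 0 to 1 hours. At cycle 9 *nos* was at 65.3 to 78.9 CPM in Upf1-Nos, 244 to 308 CPM in Upf1-NosL7 and 368 to 386 CPM in Nos embryos, against 340 to 430 CPM in w embryos, so that the *nos* counts do not show the Nos transgene. *Upf1* was at 403 to 742 CPM in Upf1 embryos, against 36.2 to 63.8 CPM in w embryos at cycle 9. In Upf1-Nos embryos it was at 22.7 to 36.0 CPM and in Upf1-NosL7 embryos at 55.1 to 72.6 CPM, so that the *Upf1* counts do not show either fusion. Over 11 chorion and vitelline membrane genes, which mark follicle cells, no library reached a summed level above 0.744 CPM.

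The genes lie on 3 chromosome arms. In the annotation of build BDGP6.54, *trk* (FBgn0003751) is a single exon of 882 nt on 2L at 10271443 to 10272324, on the minus strand, with a 3′ UTR of only 59 nt. *tor* (FBgn0003733) is on 2R at 7705183 to 7709184, minus strand, with isoforms of 3131 and 3116 nt in 14 exons. *tsl* (FBgn0003867) is on 3R at 21778114 to 21782536, minus strand, and *cic* (FBgn0262582) on the plus strand of 3R at 20252770 to 20303942, with 6 isoforms of 4940 to 10984 nt. *tll* (FBgn0003720) is on the plus strand of 3R at 30852315 to 30854400 and *hkb* (FBgn0261434) on the minus strand of 3R at 4345015 to 4346646. Each of these last genes has 1 isoform, of 1965 nt for *tll* and 1567 nt for *hkb*. The last 23 bases of *trk* overlap the last exon of *Mulk* on the other strand. Whether the reads were counted by strand is not given in the sources used here, so reads in these bases could belong to either gene.

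At cycle 9 in w embryos, *tor* had the highest level of the 6 genes per length, with 67.6 ± 22.9 TPM. It was followed by *cic* with 22.6 TPM and *trk* with 13.0 ± 1.30 TPM (SD, n = 3). The *tor* libraries of w (47.1 to 92.4 TPM) lay above all of *cic* (13.6 to 34.9 TPM), whereas *cic* and *trk* (11.6 to 14.1 TPM) overlapped. The embryonic genes were near the limit, with 0.450 TPM for *tll* and 0.103 TPM for *hkb*, and *tsl* was listed at 0 in all 3 w libraries. Of the 6 genes, *tor*, *trk* and *cic* passed the count filter in sorted embryos, among 6857 genes, and all but *tsl* passed in the collections, among 8445 genes. The plot of CPM at cycle 9 gives every library, and shows *trk* low in Upf1-Nos next to a *tor* that is level over the 5 genotypes.

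**Figure D1:**
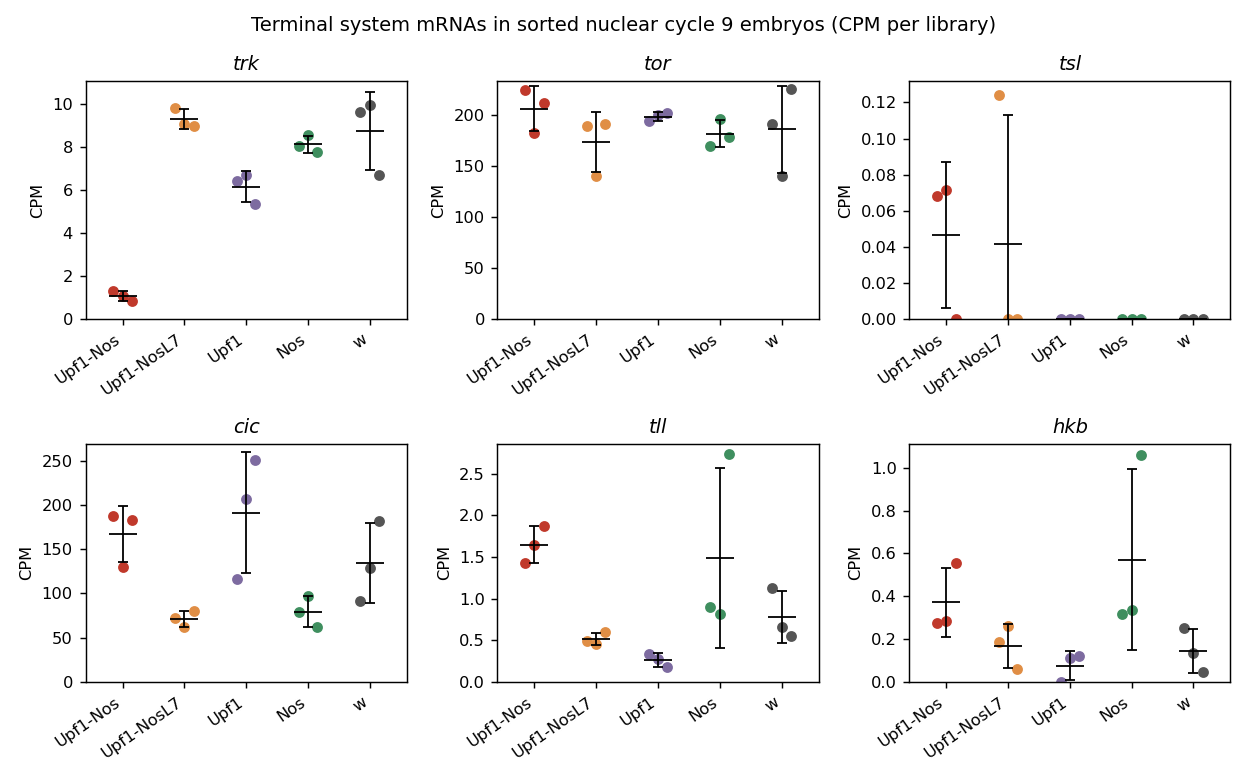
CPM of each gene in sorted cycle 9 embryos, 1 point per library, with the mean and SD of the 3 libraries of each genotype; each panel has its own linear axis from 0. *trk* was at 0.833 to 1.30 CPM in the Upf1-Nos libraries and at 5.35 to 9.97 CPM in the other 12 libraries, while *tor* lay between 140 and 226 CPM throughout.

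Among the genes that are active before the embryo's own transcription, the ligand mRNA *trk* was depleted in Upf1-Nos embryos. It had 1.30, 1.07 and 0.833 CPM in the 3 Upf1-Nos libraries, against 9.64, 9.97 and 6.68 CPM in the w libraries, from 12 to 19 counts in Upf1-Nos and 147 to 154 in w. The libraries of the groups did not overlap. *trk* fell by 3.38 on the log2 scale (SE 0.21, edgeR adjusted p = 1.06e-09), a 10.4-fold lower level after the scaling described below. Embryos at this stage are syncytial and were pooled, and fewer embryos with the mRNA cannot be told apart from less mRNA per embryo. *Mulk*, its overlapping neighbour, fell by 3.66. Of 6581 genes set against this background, 39.3% were called lower in Upf1-Nos and 1.05% higher, so that 1 depleted gene of the 3 tested is close to the share over all genes. By the size of its change *trk* stood at rank 933 from the lowest of 6857 genes.

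Without the C-terminal tail of Nos in the fusion, no such difference was seen. In Upf1-NosL7 embryos *trk* had 9.81, 9.08 and 8.97 CPM, inside the range of the w libraries. The fold change against w was 0.08 (SE 0.17, adjusted p = 0.774), with 1.75% of all genes called lower and 0.988% higher. Set directly against Upf1-NosL7, *trk* in Upf1-Nos fell by 3.46 (SE 0.21, adjusted p = 9.52e-10), where 37.8% of genes were called lower and 4.07% higher. This comparison and that with w share the Upf1-Nos libraries and are not independent.

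The controls with Upf1 or Nos alone overlapped w as well. *trk* had 6.40, 6.71 and 5.35 CPM in Upf1 embryos and 8.05, 8.54 and 7.75 CPM in Nos embryos. The log2 fold changes against w were −0.39 (SE 0.17, adjusted p = 0.149) for Upf1 and −0.05 (SE 0.17, adjusted p = 0.897) for Nos. Over all genes, 2.3% were called lower and 1.72% higher in Upf1 embryos, and 2.87% lower and 2.73% higher in Nos embryos.

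The scale of the Upf1-Nos values rests on a correction. Where many mRNAs are lost, the remaining ones take a larger share of the reads. The study scaled the Upf1-Nos libraries by 20 abundant mRNAs assumed not to change, as was done here. The paper tested its scaling by quantitative reverse transcription PCR of a set of mRNAs. It reports a close correlation between the changes in Upf1-Nos against w measured by PCR and by sequencing. The settings without the correction or with other size factors have no such test in the paper. With this scaling the median log2 fold change of all genes in Upf1-Nos against w was −0.51, and without it 0.05. Without the correction *trk* was at −2.81, and with the RLE size factors of edgeR (relative log expression) in its place at −2.82. *trk* stayed called in Upf1-Nos against w under every setting tried.

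The receptor mRNA *tor* did not share the loss of its ligand. It had 225, 182 and 213 CPM in Upf1-Nos embryos, against 192, 141 and 226 CPM in w embryos, so that the groups overlapped. The log2 fold change was −0.21 (SE 0.18, adjusted p = 0.310), above the median of all genes, and the sign depends on the scaling, since it was 0.36 at most without the correction or with size factors in its place, with no call. Against Upf1-NosL7 the log2 fold change of *tor* in Upf1-Nos was −0.09 (adjusted p = 0.664). In Upf1-NosL7, Upf1 and Nos embryos it was −0.12, 0.19 and 0.01 against w, with adjusted p-values of 0.653, 0.463 and 0.980. Its 2 isoforms, which are nearly equal in length, were present at 49.3% and 50.7% of the *tor* TPM in Upf1-Nos embryos and at 58.1% and 41.9% in w embryos.

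The follicle cell gene *tsl* was not detectable at cycle 9 at this depth. It had 0 counts in 12 of the 15 libraries and at most 2 in the others, 4 counts in all. A library with no count allows 0.136 to 0.208 CPM, the level of 3 counts, and these limits cover counting error only. Chorion and vitelline membrane genes of the follicle cells were likewise at 0 in every w and Upf1-NosL7 library for all 11 markers.

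The repressor mRNA *cic* ran from 62.0 to 250 CPM over the 15 libraries. It had 187, 130 and 183 CPM in Upf1-Nos embryos and 72.4, 62.0 and 79.7 CPM in Upf1-NosL7 embryos. Upf1 embryos had 116, 206 and 250 CPM and Nos embryos 78.5, 97.3 and 62.4 CPM, against 91.5, 129 and 182 CPM in w embryos. All Upf1-Nos libraries lay above all Upf1-NosL7 libraries. The w libraries overlapped those of Upf1-Nos, Upf1 and Nos and lay above those of Upf1-NosL7.

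No *cic* difference from w was called at cycle 9. The log2 fold changes against w were −0.04 (SE 0.30, adjusted p = 0.914) in Upf1-Nos, −0.93 (SE 0.30, adjusted p = 0.0516) in Upf1-NosL7, 0.61 (SE 0.30, adjusted p = 0.186) in Upf1 and −0.72 (SE 0.30, adjusted p = 0.115) in Nos embryos. The Upf1-NosL7 value depended on 1 library, since without w replicate 1 it was −1.16 (adjusted p = 0.0198) and called. Upf1-Nos against Upf1-NosL7 gave 0.89 (SE 0.30, adjusted p = 0.0171), below 2-fold, and passed it at 1.41 with RLE size factors, 1.44 without the correction and 1.07 without Upf1-Nos replicate 2.

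*cic* is a long mRNA, and its level moved with the balance of long and short mRNAs in each library. That balance was taken as the median log2 deviation of genes over 5000 nt minus that of genes under 1000 nt. It ran from −1.03 to 1.45 over the 15 sorted libraries, and its Pearson correlation with the *cic* deviation was 0.904. Over the 12 collections it ran from −0.50 to 0.48, with a correlation of 0.903. These correlations are descriptions over libraries that share groups, depth and RNA preparation. For *tor* the correlations were 0.595 in sorted embryos and 0.776 in the collections, and for *trk* −0.274 and 0.675.

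**Figure D2:**
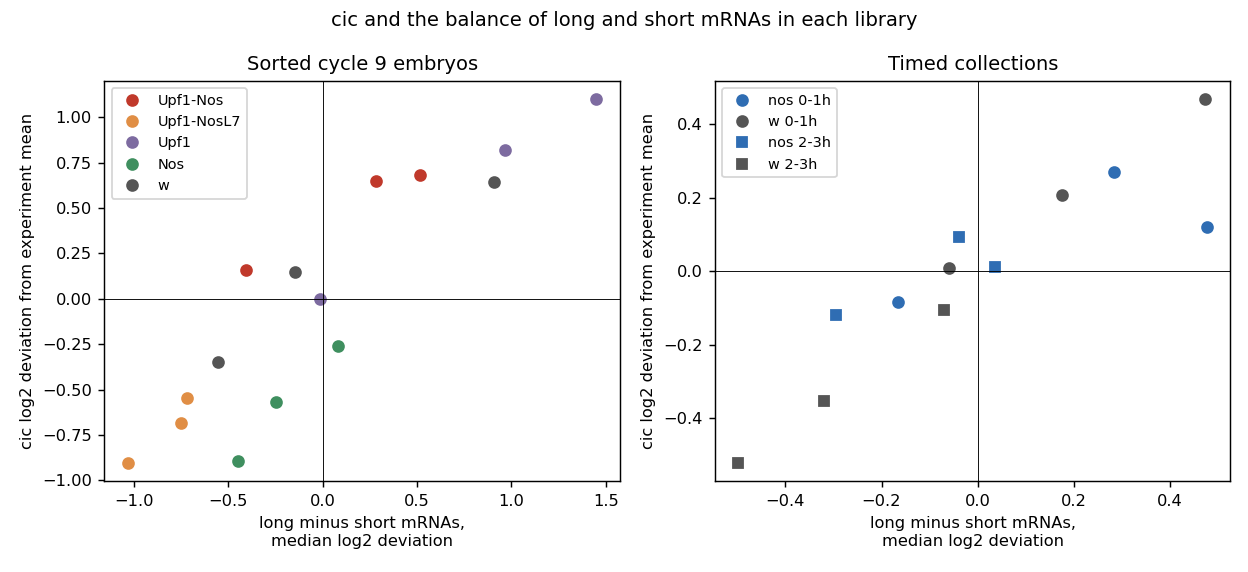
Deviation of *cic* from its mean over the experiment (log2, vertical) against the difference of the median deviations of mRNAs over 5000 nt and under 1000 nt (log2, horizontal), 1 point per library, with sorted embryos on the left and collections on the right. The points run along a diagonal in both panels, with Pearson correlations of 0.904 and 0.903, and the 3 Upf1-NosL7 libraries have the lowest horizontal values of the sorted embryos.

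With the trend along mRNA length removed from each library, the *cic* difference between Upf1-Nos and Upf1-NosL7 was no longer seen. Upf1-Nos against Upf1-NosL7 was then at 0.04 (adjusted p = 0.739). Upf1-Nos, Upf1-NosL7 and Nos were at −0.32, −0.37 and −0.40 against w, with adjusted p-values of 0.0127, 0.0274 and 0.0110, none of them past 2-fold. *trk* was at −3.53 in Upf1-Nos against w and called, and *tor* at −0.22 and not called. This alternative was chosen after the data had been seen, and the part of RNA length or integrity in the *cic* values was not tested.

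The zygotic targets were barely above the limit at cycle 9, when transcription of the embryo's genome is only starting. *tll*, an orphan nuclear receptor that represses trunk fates at the poles, had 1.43, 1.64 and 1.87 CPM in Upf1-Nos embryos and 0.497, 0.458 and 0.594 CPM in Upf1-NosL7 embryos. It had 0.341, 0.277 and 0.178 CPM in Upf1 embryos and 0.901, 0.820 and 2.73 CPM in Nos embryos, against 1.13, 0.665 and 0.545 CPM in w embryos. Each Upf1-Nos library was above every library of Upf1-NosL7, Upf1 and w, and the third Nos library was the highest of all. These values come from 3 to 49 counts, and *tll* did not pass the filter. Under the default filter of edgeR it was called in Upf1-Nos against Upf1-NosL7 with a log2 fold change of 1.31 (SE 0.47, adjusted p = 0.0230) and not in Upf1-Nos against w with 0.73 (SE 0.44, adjusted p = 0.153). *tll* passed that filter through the genotypes where it is higher, so this call is a description only. In separate fits with the main filter and 1 library left out *tll* could pass as well, since fewer libraries are then needed. In those fits the call against Upf1-NosL7 was not made without Upf1-NosL7 replicate 1 or 2, with adjusted p-values of 0.0572 and 0.0669.

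*hkb*, a zinc finger repressor that bounds the mesoderm and the gut primordia, was lower still. It had 0.273, 0.285 and 0.555 CPM in Upf1-Nos embryos, against 0.250, 0.133 and 0.0455 CPM in w embryos, from 4 to 8 counts in Upf1-Nos and 1 to 4 in w. The other genotypes held 0 to 19 counts, and the highest was again the third Nos library with 1.06 CPM. Tested with no filter, *hkb* was not called in any genotype, and Upf1-Nos against w gave 1.04 (SE 0.79, adjusted p = 0.347). Of 14 other early zygotic genes, 7 were tested at cycle 9. Of these, 1 was called higher and 0 lower in Nos against w, beside 2.73% and 2.87% of all genes. In Upf1-Nos against w 0 were called higher and 2 lower, beside 1.05% and 39.3% of all genes.

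In the timed collections *tll* and *hkb* were higher at the later stage in both genotypes. In nos- embryos *tll* had 44.4, 51.9 and 70.7 CPM at 2 to 3 hours, against 4.72, 8.36 and 7.04 CPM at 0 to 1 hours. It was higher by 2.98 (SE 0.20, edgeR adjusted p = 2.88e-07), where 12.1% of genes were called higher and 20.3% lower. In w embryos *tll* had 95.5, 98.8 and 101 CPM at 2 to 3 hours, against 4.70, 4.43 and 5.50 CPM at 0 to 1 hours. The log2 fold change was 4.50 (SE 0.22, edgeR adjusted p = 8.85e-09), with 17.1% of genes called higher and 25.4% lower. Every nos- library of the later stage lay below every w library of that stage.

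*hkb* followed the same course. In nos- embryos it had 41.7, 41.3 and 52.1 CPM at 2 to 3 hours, against 2.75, 8.13 and 7.25 CPM at 0 to 1 hours, a log2 fold change of 2.82 (SE 0.27, adjusted p = 3.28e-06). In w embryos it had 69.3, 76.7 and 81.8 CPM at 2 to 3 hours, against 3.71, 3.47 and 3.89 CPM at 0 to 1 hours, a log2 fold change of 4.52 (SE 0.29, adjusted p = 6.16e-08). The first nos- library of the early collection was the lowest of its stage and the other two were the highest, so that nos- and w overlapped at 0 to 1 hours and not at 2 to 3 hours.

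**Figure D3:**
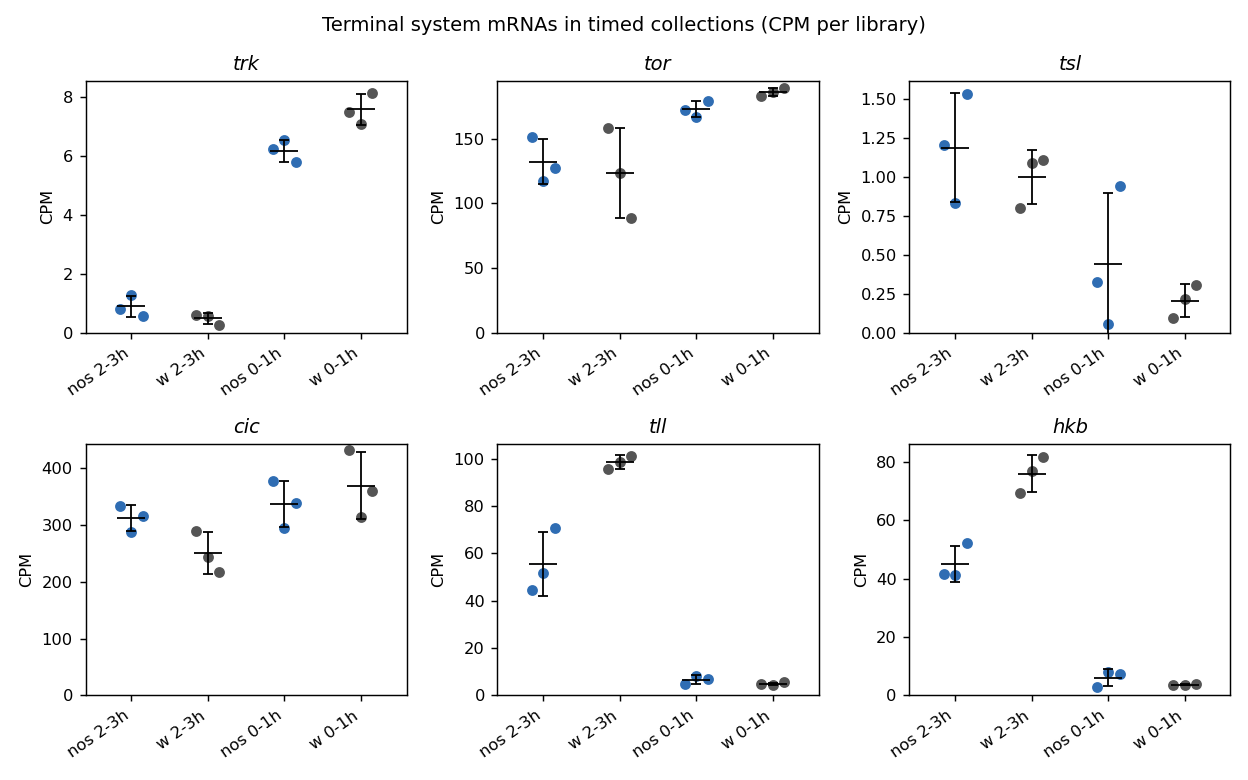
CPM of each gene in unsorted collections of nos- and w embryos at 2 to 3 hours and at 0 to 1 hours, 1 point per library, with the mean and SD of the 3 libraries of each group; each panel has its own linear axis from 0. In the later collections *tll* was at 55.7 CPM in nos- and 98.6 CPM in w embryos, and *hkb* at 45.0 CPM in nos- and 76.0 CPM in w embryos, on average.

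Both targets were lower in nos- than in w embryos at 2 to 3 hours, where fewer cells with an mRNA cannot be told apart from less mRNA per cell. *tll* averaged 55.7 ± 13.6 CPM in nos- embryos and 98.6 ± 2.94 CPM in w embryos (SD, n = 3 each) and fell by 0.93 on the log2 scale (SE 0.18, edgeR adjusted p = 0.00179). *hkb* averaged 45.0 ± 6.14 CPM in nos- embryos and 76.0 ± 6.27 CPM in w embryos and fell by 0.86 (SE 0.24, edgeR adjusted p = 0.0133). Over all genes 8.8% were called lower and 18.6% higher, and of the 5 genes tested here 2 were called lower and 0 higher. The *hkb* call did not survive the loss of some libraries. Without w replicate 2 or 3 or nos- replicate 1 or 2 its log2 fold change was −0.82, −0.74, −0.76 and −0.79, with adjusted p-values of 0.0555, 0.0615, 0.0737 and 0.0526.

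At 0 to 1 hours the values pointed the other way and stopped short of the call. *tll* was at 0.59 (SE 0.22, adjusted p = 0.0698) and *hkb* at 0.84 (SE 0.29, adjusted p = 0.0534) in nos- against w, so that 0 of the 5 genes tested was called, with 10.9% of all genes called higher and 6.74% lower. The unadjusted p was under 0.05 for 2 of the 5, at 0.0206 for *tll* and 0.0147 for *hkb*. With the replicate number as a block both were called, *tll* at 0.57 (adjusted p = 0.0408) and *hkb* at 0.80 (adjusted p = 0.0444). The labels do not say that equal numbers are pairs, and nos- replicate 1 deviated most like w replicate 2 at this stage. DESeq2 called both genes at 0.59 (adjusted p = 0.0370) and 0.84 (adjusted p = 0.0196). Without nos- replicate 1 they were also called, at 0.77 (adjusted p = 0.0228) and 1.17 (adjusted p = 4.44e-04).

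The effect of nos- on both genes differed between the stages. The interaction of genotype and stage was −1.52 for *tll* (SE 0.28, adjusted p = 0.00369) and −1.71 for *hkb* (SE 0.38, adjusted p = 0.00715), and in every alternative in which the genes were tested it was called in the same direction. Here 10.1% of all genes were called lower and 12.4% higher. Of 14 other early zygotic genes, 12 were called lower and 0 higher. Their median was −1.65, in a range from −2.06 to −0.79 that holds both *tll* and *hkb*. The plot of fold changes shows this crossing of *tll* and *hkb* from one side of 0 to the other between the stages, with *tor* and *cic* close to 0 in both.

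**Figure D4:**
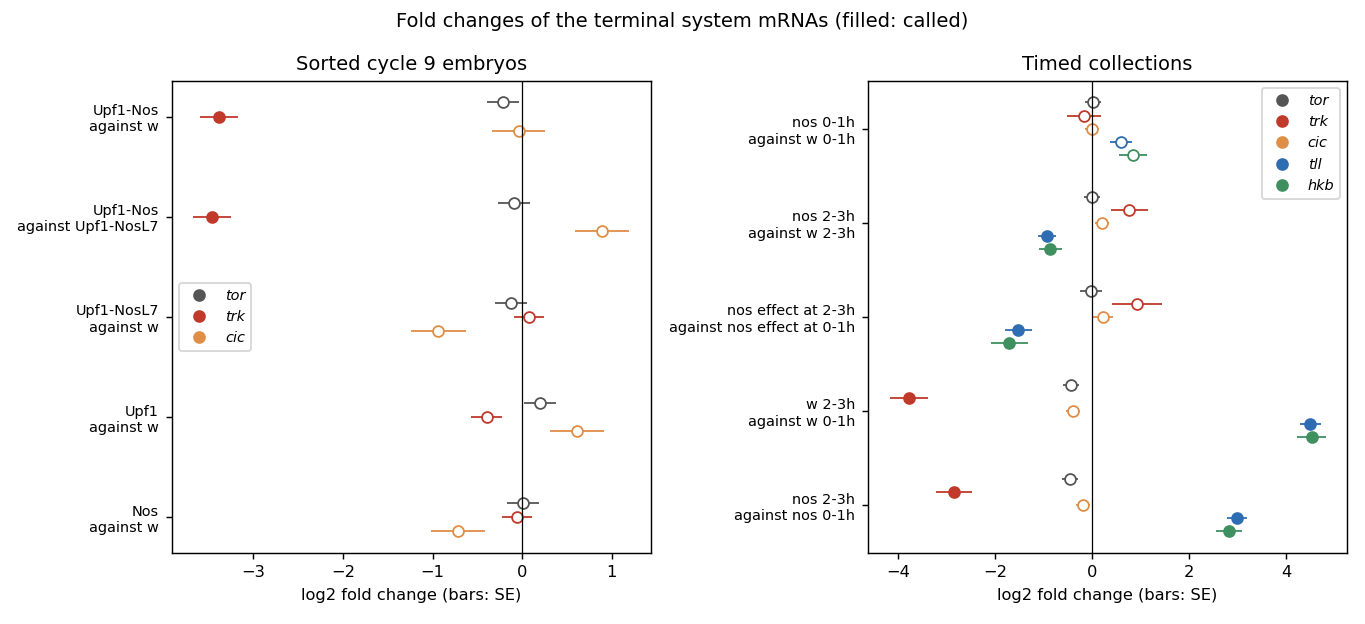
Log2 fold changes of the genes tested, with bars of 1 SE, for the comparisons of sorted embryos (left) and of the collections (right); filled points were called. *trk* is at −3.38 and −3.46 in Upf1-Nos against w and against Upf1-NosL7, and *tll* and *hkb* are at 0.59 and 0.84 in nos- against w at 0 to 1 hours and at −0.93 and −0.86 at 2 to 3 hours.

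Other genes of the early zygotic genome moved along with *tll* and *hkb*. The CPM of 14 such genes, among them *sna*, *twi*, *eve*, *ftz* and *Kr*, summed to 2629, 2895 and 3695 in nos- embryos, against 4674, 4891 and 4637 in w embryos at 2 to 3 hours. At 0 to 1 hours the sum was 397, 611 and 560 CPM in nos- embryos, against 463, 413 and 421 CPM in w embryos. Of these 14 genes, 9 were called higher in nos- at 0 to 1 hours and 8 lower at 2 to 3 hours, beside 10.9% of all genes higher and 8.8% lower, with median log2 fold changes of 1.02 and −0.63, where the median of all genes was 0.09 and 0.01. A single gene of the list, *slam*, made up a large part of the sum, with 1244, 1335 and 1861 CPM in nos- embryos, against 2520, 2542 and 2234 CPM in w embryos at 2 to 3 hours. It had 255, 327 and 307 CPM in nos- embryos, against 343, 294 and 279 CPM in w embryos at 0 to 1 hours. Without it the sum of the other 13 genes was 1385, 1560 and 1833 CPM in nos- embryos, against 2154, 2350 and 2403 CPM in w embryos at 2 to 3 hours, and 142, 284 and 253 CPM in nos- embryos, against 120, 119 and 143 CPM in w embryos at 0 to 1 hours. The part of this wider shift in the *tll* and *hkb* values was not tested.

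The shares of *tll* and *hkb* in this sum depended on *slam*. In the later collections *tll* was 1.69%, 1.79% and 1.91% of the sum in nos- embryos, against 2.04%, 2.02% and 2.19% in w embryos, and the groups did not overlap. *hkb* was 1.59%, 1.43% and 1.41% of the sum in nos- embryos, against 1.48%, 1.57% and 1.76% in w embryos, and the groups overlapped. Without *slam*, a choice made after the data had been seen, *tll* was 3.21%, 3.33% and 3.86% of the sum in nos- embryos, against 4.43%, 4.21% and 4.22% in w embryos. *hkb* was then 3.01%, 2.65% and 2.84% in nos- embryos, against 3.22%, 3.27% and 3.40% in w embryos, so that nos- lay below w for both genes. At 0 to 1 hours *tll* was 3.32%, 2.94% and 2.79% of the sum without *slam* in nos- embryos, against 3.92%, 3.73% and 3.86% in w embryos, whereas with *slam* it was 1.19%, 1.37% and 1.26% in nos- embryos, against 1.02%, 1.07% and 1.31% in w embryos. For *hkb* at 0 to 1 hours the share without *slam* was 1.94%, 2.86% and 2.87% in nos- embryos, against 3.09%, 2.92% and 2.73% in w embryos. With *slam* it was 0.694%, 1.33% and 1.3% in nos- embryos, against 0.801%, 0.84% and 0.924% in w embryos. The groups overlapped in both. Some of 5 genes taken as markers of late embryos were also present. The 5 summed to 17.1 to 207 CPM in nos- and 41.0 to 204 CPM in w embryos at 0 to 1 hours. At 2 to 3 hours they summed to 137 to 278 CPM in nos- and 253 to 317 CPM in w embryos. In sorted embryos their sum was 0.742 CPM at most. In w embryos at 0 to 1 hours the sum was mostly *Act57B* and *Mhc*, at 86.2 and 34.6 CPM on average. *repo* averaged 0.283 CPM and *Cpr47Ea* 0 there. *elav* averaged 3.53 CPM in w and 13.8 CPM in nos- embryos at that stage. Of the 3 late markers tested there, 1 was called higher in nos- against w, at 2.12 on the log2 scale, and 0 lower, with a median of −0.59. In w embryos *tll* averaged 4.88 CPM and *hkb* 3.69 CPM at 0 to 1 hours. The w embryos sorted at cycle 9, a separate experiment, had 0.779 and 0.143 CPM. The part of late or otherwise older embryos in the *tll* and *hkb* values of the collections was not tested.

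The maternal *trk* was lower at the later stage in both genotypes. It had 6.23, 6.54 and 5.79 CPM in nos- embryos, against 7.51, 7.09 and 8.16 CPM in w embryos, at 0 to 1 hours, with no overlap. In the later collections it had 0.802, 1.29 and 0.580 CPM in nos- embryos, against 0.617, 0.572 and 0.278 CPM in w embryos, from 11 to 28 counts in nos- and 5 to 10 in w. Between the stages *trk* fell by 2.85 (SE 0.38, adjusted p = 4.08e-05) in nos- embryos and fell by 3.78 (SE 0.40, adjusted p = 3.12e-06) in w embryos. Against w, nos- gave −0.17 (SE 0.34, adjusted p = 0.777) at 0 to 1 hours and 0.76 (SE 0.38, adjusted p = 0.126) at 2 to 3 hours, and the interaction was 0.93 (SE 0.51, adjusted p = 0.186). None of these passed the test, and the later values of *trk* rest on few counts.

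The mRNAs of *tor* and *cic* were not called between the stages in either genotype. *tor* had 172, 167 and 179 CPM in nos- embryos, against 183, 186 and 190 CPM in w embryos at 0 to 1 hours, and 151, 117 and 128 CPM in nos- embryos, against 158, 124 and 88.6 CPM in w embryos at 2 to 3 hours. Its log2 fold changes for nos- against w were 0.02 (adjusted p = 0.959) and −0.01 (adjusted p = 0.963). Between the stages it was at −0.46 (adjusted p = 0.0240) in nos- and −0.44 (adjusted p = 0.0275) in w embryos, below 2-fold in both. At 0 to 1 hours all nos- libraries lay below all w libraries in CPM, and the scaled fold change was near 0. *cic* had 377, 295 and 339 CPM in nos- embryos, against 432, 314 and 361 CPM in w embryos, at 0 to 1 hours. In the later collections it had 333, 287 and 315 CPM in nos- embryos, against 290, 244 and 217 CPM in w embryos, and the groups overlapped at both stages. The log2 fold changes were −0.01 (SE 0.15, adjusted p = 0.979) and 0.21 (SE 0.15, adjusted p = 0.264). Between the stages *cic* was at −0.19 (adjusted p = 0.270) in nos- embryos, where the libraries overlapped, and at −0.40 (adjusted p = 0.0246) in w embryos, where they did not.

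*tsl* was at the limit in the collections too. It had 0.328, 0.0569 and 0.939 CPM in nos- embryos, against 0.0950, 0.213 and 0.309 CPM in w embryos, at 0 to 1 hours. In the later collections it had 1.20, 0.831 and 1.53 CPM in nos- embryos, against 0.802, 1.09 and 1.11 CPM in w embryos. The stages did not overlap in w and overlapped in nos-. *tsl* did not pass the filter. Under the default filter w gave 2.37 (SE 0.77, adjusted p = 0.0155) between the stages, which was called, and nos- 1.28 (SE 0.72, adjusted p = 0.145). *tsl* passed that filter through the later collections, where it is higher, so this call is a description only. It rests on 2 to 5 counts in w embryos at 0 to 1 hours and 13 to 20 at 2 to 3 hours. Of the 11 follicle cell markers, 5 in nos- and 8 in w embryos were at 0 in every library of 2 to 3 hours.

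Single isoforms of *cic* differed where the gene did not. Isoform cic-RG, the longest at 10984 nt with a 3′ UTR of 3315 nt, had 103, 102 and 88.0 CPM in nos- embryos, against 70.2, 63.0 and 52.8 CPM in w embryos at 2 to 3 hours. It was higher by 0.55 (SE 0.12, adjusted p = 0.00870). Isoform cic-RD, of 7259 nt, had 3.34, 1.94 and 3.51 CPM in nos- embryos, against 0.888, 0.600 and 0.452 CPM in w embryos, and was higher by 2.11 (SE 0.57, adjusted p = 0.0226). It is a trace isoform, with 0.8% of the *cic* TPM in nos- and 0.214% in w embryos at this stage. Its w values rest on 8.14 to 14.4 expected counts per library. The main isoform cic-RA, of 5167 nt, gave −0.03 (SE 0.18, adjusted p = 0.950). Over all 15528 isoforms 11.6% were called higher and 5.8% lower. Without w replicate 3, cic-RG was at 0.46 and no longer called, and cic-RD lost its call without w replicate 2 or 3 or nos- replicate 1 or 3, with adjusted p-values from 0.0555 to 0.0802. RSEM divides reads that fit several isoforms by a model, so these values are less certain than those of the gene.

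In sorted embryos cic-RA was called higher in Upf1-Nos against Upf1-NosL7 at 1.15 (SE 0.32, adjusted p = 0.00880), with 3.79% of isoforms called higher and 32.4% lower. With the trend along length removed it was at 0.30 and not called, while cic-RG, at 0.26 before, was at −1.64 (adjusted p = 1.13e-05). Without Upf1-Nos replicate 1, cic-RA was at 0.99 and under 2-fold. The single isoform of *trk* gave −3.43 (SE 0.28, adjusted p = 2.3e-07) in Upf1-Nos against w, with 33% of isoforms called lower and 2.8% higher.

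The genes around the 6 in the pathway were counted from lists of their roles. Beside *trk*, the ligand side includes the vitelline membrane proteins that hold Torso-like, of which *fs(1)N*, *fs(1)M3* and *clos* were tested. In Upf1-Nos against w all 4 tested genes were called lower, *fs(1)N* at −3.94, *clos* at −3.77 and *fs(1)M3* at −3.62 on the log2 scale, with a median of −3.70 beside −0.51 over all genes, of which 39.3% were called lower. The genes *fs(1)N*, *clos* and *fs(1)M3* were called higher in nos- against w at 2 to 3 hours, at 2.39, 2.09 and 1.53, where 18.6% of all genes were called higher, and *trk* was not. At 0 to 1 hours none of the 4 was called, with a median of −0.06.

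Of 14 genes of the Ras and MAP kinase cascade, 3 were called lower in Upf1-Nos against w and 0 higher, beside 39.3% of all genes lower and 1.05% higher, with a median of −0.12. They were *Sos*, the exchange factor of Ras, at −3.70, *Dsor1*, the MAP kinase kinase, at −3.46, and *dos*, an adaptor, at −2.26. *rl*, the MAP kinase itself, was called lower in Nos against w at cycle 9, at −1.13, and in nos- against w, at −1.43 at 0 to 1 hours and −1.49 at 2 to 3 hours. It was the only gene of this list called in those 3 comparisons, beside 2.87%, 6.74% and 8.8% of all genes called lower. Of the Cic partners *gro*, *mnb* and *wap*, 0 were called in Upf1-Nos against w or in nos- against w at either stage.

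The other targets of the terminal system or of Cic had fold changes of the same sign as *tll* and *hkb* in nos-. All 5, *fkh*, *ind*, *wntD*, *byn* and *zen*, were called higher in nos- against w at 0 to 1 hours, from 0.71 to 1.47, the highest for *fkh*, beside 10.9% of all genes. At the later stage *zen* was at −0.86 and *byn* at −0.71, both called lower, beside 8.8% of all genes, and the other 3 were not called. All 5 were called lower in the interaction, from −1.57 to −1.85, beside 10.1% of all genes. The 14 early zygotic genes moved likewise. Of them 9 were called higher at 0 to 1 hours, 8 lower at 2 to 3 hours and 12 lower in the interaction, with a median of −1.65 there.

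**Figure D5:**
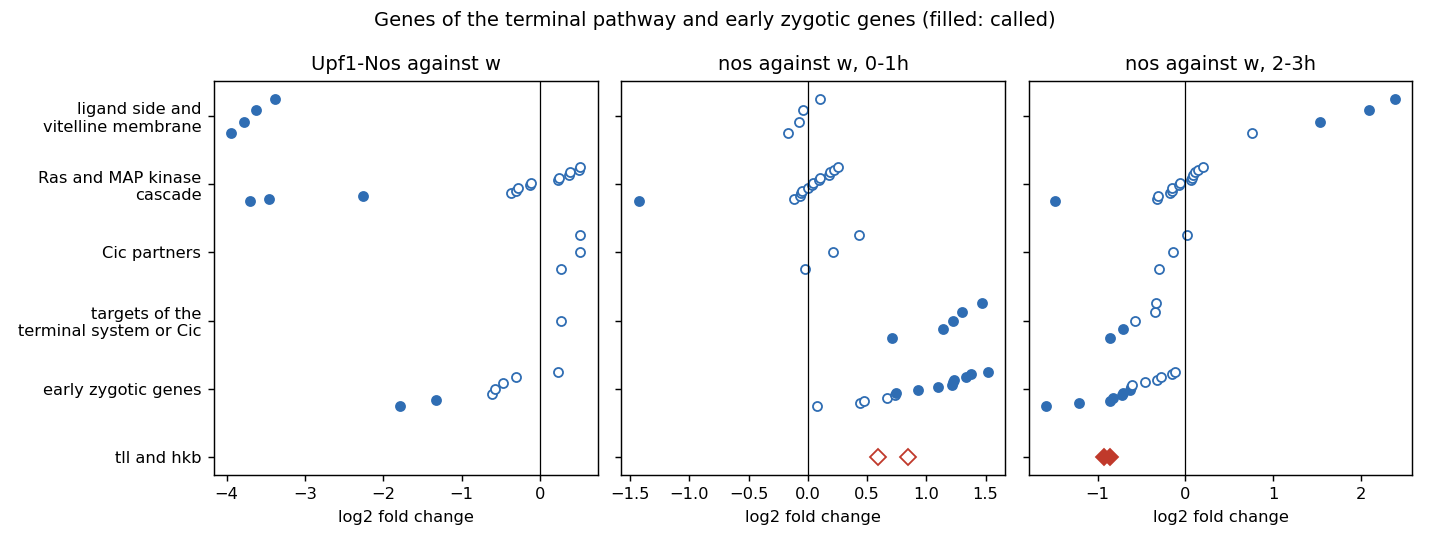
Log2 fold change of each tested gene of 5 lists, with *tll* and *hkb* as diamonds below them, in Upf1-Nos against w at cycle 9 (left) and in nos- against w at 0 to 1 hours (middle) and 2 to 3 hours (right); filled symbols were called. The ligand side lies between −3.94 and −3.38 in Upf1-Nos, and *tll* and *hkb* lie within the range of the early zygotic genes in both nos- panels.

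By likeness of their levels the genes fell into different company. Over the 12 collections the genes nearest to *tll* by Pearson correlation of log2(CPM + 0.5) were *Sry-alpha* at 0.998 and *halo* at 0.997, and the same 2 genes were nearest to *hkb*, both at 0.997. For *trk* they were *Tbca* and *CG8112*, both at 0.995, for *tor* *CG8726* at 0.982 and *ced-6* at 0.978, and for *cic* *E(Pc)* at 0.979 and *tweek* at 0.975. Over the 15 sorted libraries *Efr* and *CG13603* were nearest to *trk*, both at 0.993, *Hrd3* at 0.913 and *puc* at 0.880 to *tor*, and *Prosap* at 0.995 and *tou* at 0.994 to *cic*. These are the highest values among all genes tested, over libraries that share groups, and no p is attached to them.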

How the data were processed

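Poly(A)-selected TruSeq libraries were sequenced as paired ends. The authors trimmed the reads, removed those of mitochondrial RNA, tRNA and rRNA, mapped the others with STAR 2.5.3a and deposited expected counts and TPM per gene and isoform from RSEM 1.3.0, without further normalization. Expected counts were rounded and filtered (filterByExpr, count and total minimum 30). The 15 sorted and the 12 unsorted libraries were each fitted by group with edgeR 4.0.16 in R 4.3.3, with TMM scaling, replaced in Upf1-Nos by factors from 20 genes. Genes called in Upf1 were left out of the background of Upf1-Nos and Upf1-NosL7 against w. DESeq2 1.42.0, other filters and scalings, a replicate block, a length offset (lowess span 0.3) and left-out libraries served as alternatives. Same-numbered nos- and w libraries deviated together (correlations 0.123 to 0.484 at 0 to 1 hours, 0.132 to 0.504 at 2 to 3 hours). Replicate pairs differed beyond sampling noise (chi-square per degree of freedom 6.56 or more in 27 pairs). On simulated data, 100% of 100 genes changed by 1.5 on the log2 scale were recovered in each comparison tried. These were Upf1-Nos against w (6759 genes) and nos- against w at 2 to 3 hours (8247 genes), with 0 and 6 unchanged genes called. All simulated libraries were drawn from w levels with the same spread for every gene. They held no broad loss of mRNAs and no length trend, so they do not test the correction of Upf1-Nos. Smaller changes, such as those of *tll* and *hkb* in nos-, were not simulated.

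The files, on BDGP6.22, hold no coordinates; those given are from BDGP6.54. The 6 genes are named whatever their values, list genes if called with the largest fold changes, and the 2 genes most alike. Members and lists were chosen with earlier results of these data known.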

Additional observations from a re-analysis of the deposited data

Results flagged for a closer look

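The effect of nos- on *tll* differed between the stages, by −1.52 on the log2 scale in the interaction of genotype and stage (edgeR quasi-likelihood test, SE 0.28, adjusted p = 0.00369). All 3 nos- libraries lay below all 3 w libraries at 2 to 3 hours, and 2 of 3 lay above all of w at 0 to 1 hours. The same difference for *hkb* was −1.71 (SE 0.38, adjusted p = 0.00715), again with all nos- libraries below w at 2 to 3 hours and 2 of 3 above w at 0 to 1 hours. Neither gene stood apart in this, since 12 of 14 other early zygotic genes were called lower and 0 higher, with a median of −1.65.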

How the results depend on the processing

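Of 614 results of single genes under an alternative, 598 stayed on their side of the threshold, 12 passed it where they had not before, 4 no longer passed it and 0 changed direction among called values. The number of the 6 genes called in Upf1-Nos against Upf1-NosL7 was 1, and 2 with the default filter, with no filter, with RLE size factors and without the correction, and 1 to 3 with 1 library left out. In Upf1-NosL7 against w and in Upf1 against w it was 0, and 0 to 1 with 1 library left out. The call in Upf1-NosL7 is *cic* without w replicate 1, and that in Upf1 is *tll* without w replicate 3, at −1.70 (edgeR adjusted p = 0.0478). *tll* did not pass the main filter with all libraries and had 3 to 5 counts in Upf1 embryos. It passes in these alternatives through genotypes where it is higher, so its calls at cycle 9 are descriptions only. In nos- against w at 0 to 1 hours it was 0, and 1 with no filter or with the length trend removed (*hkb* at 0.85 and 0.86), 2 with DESeq2 or with the replicate block, and 0 to 2 with 1 library left out. At 2 to 3 hours it was 2, and 1 to 2 with 1 library left out. With only maternal genes in the fit, *tll* and *hkb* are not tested, and the counts were 0 at 2 to 3 hours, 0 in the interaction, and 1 between the stages in w and in nos-, where they had been 2, 2, 3 and 3.

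The replicate block changed the calls of *tll* and *hkb* at 0 to 1 hours (0.57 and 0.80) and no other call of the 6 genes. Only in nos- against w did all same-numbered libraries correlate above 0.1, and the labels do not say that they are pairs. At 0 to 1 hours nos- replicate 1 was at 0.123 and closer to w replicate 2. Between the stages in nos- the lowest correlation was 0.098. In Upf1 against w replicates 1 and 3 were at 0.693 and 0.727, and replicate 2 at 0.041. Over all genes, the number called higher in Upf1-Nos against w was 150 with no gene left out, and 755 with RLE size factors, 739 without the correction, 227 with the default filter and 315 with none. In Upf1-Nos against Upf1-NosL7 it was 279, and 780 with RLE size factors, 833 without the correction and 34 with the length trend removed. With no filter, 354 genes were called lower and 324 higher in Nos against w in place of 197 and 187, and 287 higher in Upf1-NosL7 in place of 155. Fitting only the groups compared gave 72 higher in Upf1 in place of 118, and 446 higher in nos- at 0 to 1 hours in place of 924. In the interaction, 853 genes were called lower, and 486 with RLE size factors. With maternal genes only, the counts were 410 lower in the interaction, 374 lower in place of 569 and 305 higher in place of 924 in nos- at 0 to 1 hours, and 283 and 870 higher between the stages in nos- and in w in place of 1026 and 1444. A fit on the groups compared alone is, for the interaction, the same fit. Alternatives of the 3′ UTR used for motifs were not run, since no sequence was read here. The lowest levels set the limit: *tsl* throughout, and *tll* and *hkb* at cycle 9, rest on fewer than 50 counts per library.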
